A study of Mus musculus with 8 samples.

Results

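The immunoglobulin kappa variable (Igkv) segments of the mouse were examined by RNA-seq in B cells of the bone marrow. They were taken as every row of the deposited count table whose Ensembl identifier carries a symbol beginning with Igkv, which gave 160 of 54532 rows. The number before the dash names the V family, and the 160 segments fell into 20 families. Per the labels, the cells came from mice after ovariectomy (OVX), which removes the ovarian source of estrogen, or after a sham operation (Sham), with 3 libraries per group, and were separated from marrow with magnetic beads. The study set out to define genes that differ between these groups. Strain, age, time after surgery and the number of mice behind each library are not given for these 6 libraries in the sources used here, so the p-values measure the spread between libraries, which may be technical in part.

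A kappa light chain is built when a developing B cell joins a V segment to a J segment by cutting and repairing its DNA with the RAG1 and RAG2 recombinase, which happens mainly at the pre-B stage. The joined VJ exon is then spliced to the constant exon Igkc. Each cell usually keeps a single productive light chain, so the V segments found in a population give a picture of its light chain repertoire. Plasma cells, which secrete antibody, carry far more light chain RNA per cell than resting B cells or precursors. A count of reads per V segment is therefore not a count of cells, and in these bulk libraries fewer cells of a type and less RNA per cell cannot be told apart. Reads of rearranged and unrearranged segments are not separated either.

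All 160 segments lie on chromosome 6. They span 67555636 to 70704177 in GRCm38.p6, the release of the mm10 build named in the submitters' processing notes, with Igkj1 starting at 70722562 and Igkc at 70726435 to 70726754. RefSeq annotates 101 of them as V segments and 59 as V segment pseudogenes, a class for segments with defects that keep them from coding a light chain. The class was taken from the annotation, and the defects were not examined here. The 6 libraries held between 23838775 and 33136701 counts, and between 31281 and 65067 of these fell on Igkv segments. Genes that mark B cells were high in all of them, with Cd79a, a signalling chain of the B cell receptor, at 1548 to 1883 CPM and Pax5, a transcription factor of B cell identity, at 1195 to 1329 CPM. CPM are counts relative to the library total after TMM scaling in edgeR. Neutrophil markers took 0.241% to 0.888% in Sham and 0.105% to 0.384% in OVX and were highest in Sham replicate 3. All 10 of them, all 10 monocyte and macrophage markers and all 8 erythroid markers had a log2 fold change below 0 in OVX against Sham. So did 8 of 9 T and NK cell markers, while 6 of the 7 stroma and endothelium markers tested were above 0. Of all genes tested, 51.8% were below 0 and 48.2% above. None of these lists separated the groups in its summed share of counts. The part of these other cell types in the results below was not tested.

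The kappa signal was spread unevenly over the segments. V segments had a median of 1808 counts over the 6 libraries together, and pseudogenes had a median of 5. No count was found in any library for 15 segments, all of them annotated as pseudogenes. A filter on low counts kept 111 segments, of which 98 were V segments and 13 were pseudogenes. The other 34 with counts reached at most 22 counts in a library. On average over the 6 libraries, 40 segments held at least 1% of the Igkv counts each, and together they held 77.2%. The only annotated pseudogene among these 40 was Igkv14-126 (ENSMUSG00000094345).

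The 10 segments with the highest mean share of Igkv counts were Igkv1-117, Igkv10-96, Igkv1-135, Igkv1-110, Igkv19-93, Igkv6-15, Igkv6-23, Igkv17-127, Igkv9-120 and Igkv6-17, with shares from 4.66% for the first to 2.34% for the last. Together the 10 highest segments of a library held 32.3% to 36.8% of its Igkv counts. Segments differ in length from 209 to 1167 bases, and per base of segment the order changed. Igkv10-96 then came first with 5.04% of the length-scaled signal, followed by Igkv19-93 with 3.87% and Igkv1-117 with 3.42%. Igkv1-117 (68121091 to 68121825 on chromosome 6) held 4.66%, 4.50% and 4.20% of Igkv counts in the Sham libraries and 5.53%, 3.77% and 5.25% in the OVX libraries. Igkv10-96 (68631965 to 68632430) held 3.54%, 5.22% and 5.27% in Sham and 4.10%, 4.27% and 3.75% in OVX. Each of these was the highest segment of 3 libraries, Igkv1-117 in Sham replicate 1 and OVX replicates 1 and 3, and Igkv10-96 in the others, so the leading segment did not follow the operation. No segment exceeded 5.53% of the Igkv counts of a library, and none had a library above 5 times the median of the others while holding at least 1% of that library's Igkv counts.

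**Figure D1:**
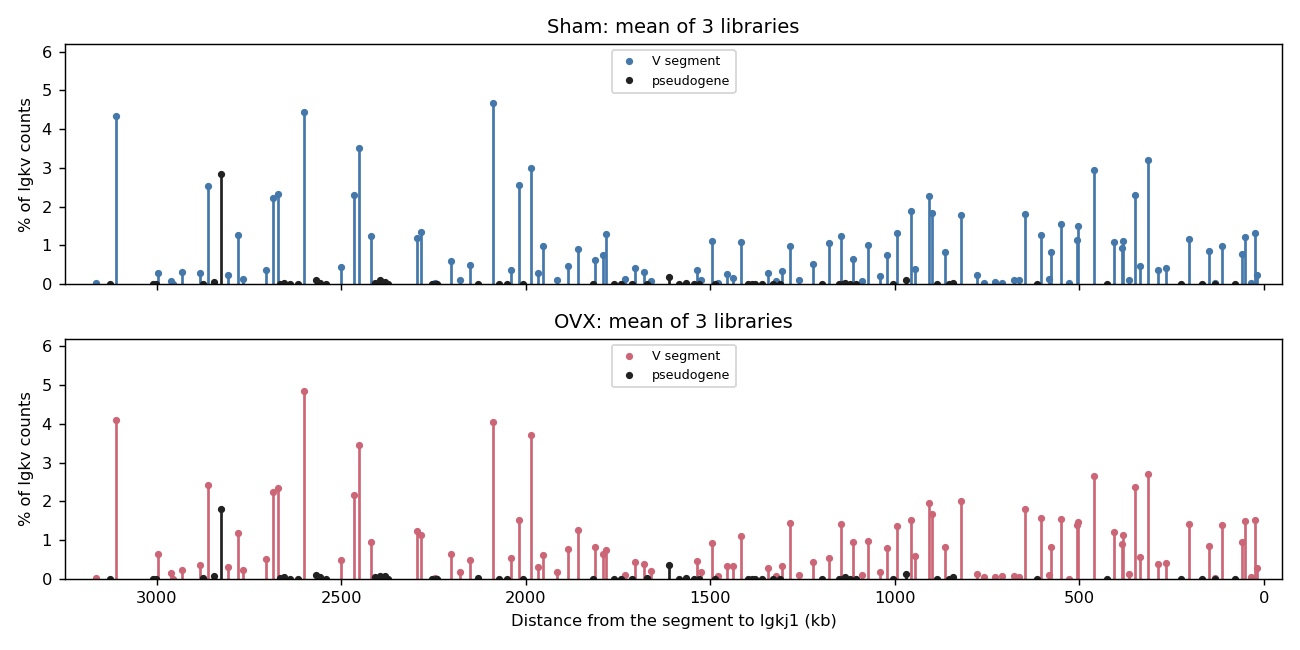
Mean share of Igkv counts (y axis, percent) of each of the 160 segments against its distance from Igkj1 (x axis, kb), in the 3 Sham libraries (top) and the 3 OVX libraries (bottom). Coloured stems are V segments and black stems are pseudogenes. Tall stems stand at both ends of the locus, and the single tall black stem is Igkv14-126.

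Segments were used along the whole locus. The span was divided into 4 stretches of equal length by distance from Igkj1. The nearest stretch (39 segments) held 28.4% ± 0.27 of the Igkv counts in Sham and 29.5% ± 0.12 in OVX (SD, n = 3 per group). The next stretch (48 segments) held 20.9% ± 0.44 and 21.2% ± 0.23. The stretch after that (37 segments) held 21.0% ± 1.92 and 20.4% ± 0.73, and the farthest stretch (36 segments) held 29.7% ± 2.40 and 29.0% ± 1.00. For the nearest stretch the groups did not overlap, with 28.6%, 28.5% and 28.1% in Sham and 29.6%, 29.5% and 29.4% in OVX. Per Igkv count, 8.09% of all genes tested were higher in every OVX library. All of family 3, described below, lies in this stretch. Its mean share was 1.33 points higher in OVX, against 1.10 points for the stretch, so the results are not separate. In level, 30 of the 32 tested segments of the stretch had a log2 fold change below 0 in OVX (51.8% of all genes). In the other 3 stretches the groups overlapped.

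Total kappa variable RNA did not separate the groups. Igkv segments took 0.131%, 0.234% and 0.179% of all counts in the Sham libraries and 0.144%, 0.134% and 0.128% in the OVX libraries. The mean was 0.181% ± 0.052 in Sham and 0.136% ± 0.0081 in OVX (SD, n = 3 per group), a log2 ratio of -0.42, but Sham replicate 1 lay among the OVX libraries. The ratio was -0.61 without Sham replicate 1 and -0.19 without Sham replicate 2. The constant exon Igkc, which mature kappa transcripts carry, took 0.174%, 0.317% and 0.259% in Sham and 0.209%, 0.206% and 0.188% in OVX, and was likewise highest in Sham replicates 2 and 3. Igkv counts per Igkc count were between 0.652 and 0.755 in all libraries.

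Sham replicate 2, the library with the most kappa RNA, also had the highest levels of some plasma cell genes (Jchain, Txndc5, Prdm1 and Tnfrsf17). The same held for genes of mature B cells, among them Ighd and Fcer2a. Jchain, whose product links secreted IgM and IgA, was at 112, 641 and 516 CPM in Sham and 257, 105 and 71.3 CPM in OVX. Ighd, the IgD heavy chain of mature B cells, was at 425, 1012 and 432 CPM in Sham and 546, 449 and 512 CPM in OVX. Fcer2a (CD23), also of mature B cells, was at 433 CPM in Sham replicate 2 and between 131 and 200 CPM elsewhere. Sdc1 (CD138), a surface marker of plasma cells that some precursors also carry, was in contrast lowest in Sham replicate 2, at 51.4 CPM against 68.2 to 95.0 CPM elsewhere. Of the same plasma cell list, Irf4 (392 CPM against 487 to 587 CPM) and Slamf7 (153 CPM against 173 to 219 CPM) were also lowest there. Xbp1 and Derl3 were highest in Sham replicate 3, and Mzb1 in Sham replicate 1. Rag1 was at 1350, 581 and 975 CPM in Sham and 1074, 1516 and 1453 CPM in OVX, and so was lowest in Sham replicate 2. As whole lists, the 10 plasma cell genes summed to 0.146% to 0.188% of counts in Sham and 0.133% to 0.157% in OVX, and the 8 mature B cell genes to 0.124% to 0.306% and 0.134% to 0.168%. The 10 pro-B and pre-B genes summed to 0.185% to 0.340% in Sham and 0.273% to 0.358% in OVX. A log2 fold change below 0 was found for 6 of the 10 plasma cell genes, 6 of the 8 mature B cell genes and 2 of the 10 pro-B and pre-B genes. Over all genes tested it was found for 51.8%, which the plasma cell genes were near. No gene of the 3 lists was at 0 in every library, and their part in the Igkv levels was not tested.

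**Figure D2:**
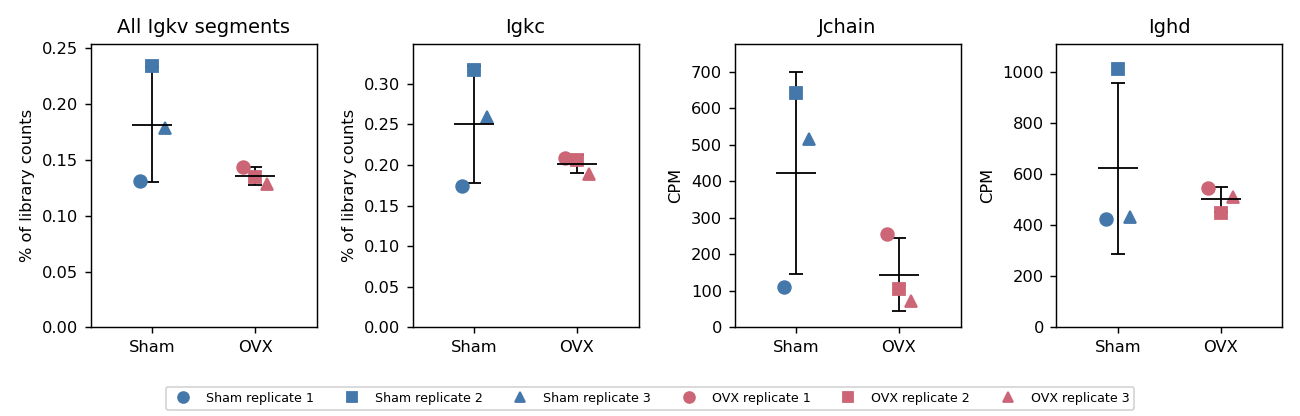
Igkv segments together and Igkc (y axes, percent of library counts), and Jchain and Ighd (y axes, CPM), in the 6 libraries. Symbols mark replicates, horizontal lines the group mean and bars the SD over 3 libraries. Sham replicate 2 is the highest point in each panel, and OVX replicates 2 and 3 are below every Sham library for Jchain.

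Use differed widely between the V families. Family 1 (13 segments) held 14.2% ± 0.92 of Igkv counts in Sham and 15.3% ± 1.20 in OVX, family 4 (33 segments, the largest family) 13.6% ± 2.17 and 14.4% ± 1.05, and family 6 (9 segments) 13.2% ± 0.19 and 12.7% ± 0.43 (SD, n = 3 per group). Next came family 8 with 8.07% ± 0.10 and 8.53% ± 0.11, family 3 with 6.64% ± 0.26 and 7.97% ± 0.54 and family 10 with 7.61% ± 1.79 and 6.09% ± 0.42. Family size and share did not go together in every case. Family 13 has 18 segments, 16 of them pseudogenes, and averaged 1.75% of Igkv counts, whereas Igkv19-93, the single segment of family 19, averaged 3.36%. Families 11, 7, 18 and 20 each averaged under 0.5%, down to 0.0231% for family 20, whose only segment Igkv20-101-2 had 5 to 16 counts per library.

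Within a family the counts were concentrated to different degrees. In family 4 the leading segment, Igkv4-57, held 9.49% of the family's counts, and in families 6, 8 and 3 the leading segments Igkv6-15, Igkv8-27 and Igkv3-2 held 22.7%, 18.7% and 19.5%. Igkv1-117, Igkv12-44 and Igkv5-39 held 31.7%, 34.8% and 34.4% of families 1, 12 and 5, and Igkv14-126 held 41.9% of family 14. Most of the counts of a family came from its leading segment in family 10 (Igkv10-96, 63.6%), family 2 (Igkv2-109, 61.3%), family 13 (Igkv13-84, 58.1%), family 9 (Igkv9-120, 57.3%), family 17 (Igkv17-127, 52.5%), family 11 (Igkv11-125, 76.6%) and family 15 (Igkv15-103, 98.6%). Families 7, 16, 18, 19 and 20 consist of a single segment each, Igkv7-33, Igkv16-104, Igkv18-36, Igkv19-93 and Igkv20-101-2.

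**Figure D3:**
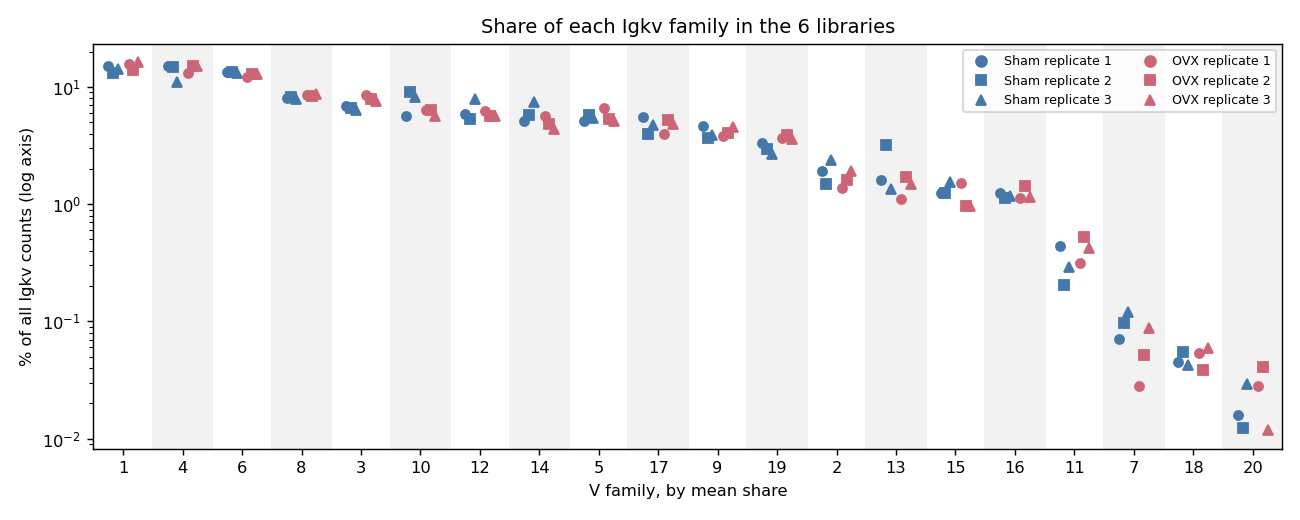
Share of Igkv counts (y axis, percent, log axis) of the 20 V families, ordered by mean share (x axis), in each Sham (blue) and OVX (red) library. Families 3, 8 and 19 have all OVX points above all Sham points, and family 6 has all OVX points below.

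In 4 of the 20 families the groups did not overlap. Shares within a library add up to 100, so the families are not independent of each other. Family 3, which lies closest to Igkj1 at 18.4 to 224 kb, held 6.90%, 6.64% and 6.37% in Sham and 8.56%, 7.82% and 7.52% in OVX, a log2 ratio of 0.26. Family 19 held 3.33%, 2.95% and 2.70% in Sham and 3.68%, 3.91% and 3.57% in OVX, a log2 ratio of 0.31. Family 8 differed by less, with 8.10%, 8.15% and 7.96% in Sham and 8.57%, 8.40% and 8.61% in OVX. Family 6 was lower in OVX, at 12.20%, 12.99% and 12.86% against 13.28%, 13.42% and 13.04% in Sham, so the nearest libraries were almost level. Taken as counts per Igkv count, 8.09% of all 15305 genes tested had every OVX library above every Sham library, and 0.431% had every OVX library below. The Igkv sum was itself lower on average in OVX (log2 ratio -0.42). In level, 8 of the 9 tested segments of family 3 had a log2 fold change below 0. So did all 9 of family 8 and all 9 of family 6, against 51.8% of all genes. A higher share of families 3 and 8 was therefore not a higher level of most of their segments.

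None of the 9 tested segments of family 3, nor of the 9 of family 8, had shares that by themselves separated the groups. Without the leading segment of each family, family 3 still separated the groups and family 8 overlapped. Different segments of family 3 were high in different OVX libraries. In OVX replicate 1 they were Igkv3-4 (2.35% against 1.02% to 1.31% in the other libraries) and Igkv3-5 (1.5% against 0.643% to 0.815%). In OVX replicate 2 Igkv3-7 was highest, at 1.99% against 0.902% to 1.21%. In OVX replicate 3 Igkv3-12 was highest, at 1.63% against 1.05% to 1.39%. In family 6, Igkv6-25 alone separated the groups in share and was higher in OVX, opposite to its family. Family 19 is a single segment, and although its share separated the groups, its level in CPM did not, at 44.0, 67.6 and 48.1 in Sham and 53.0, 53.7 and 45.9 in OVX.

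Other families differed between libraries of the same group by more than the groups differed. Family 6 did so too, at 12.20% to 12.99% within OVX beside group means of 13.2% in Sham and 12.7% in OVX. Family 13 was at 3.22% in Sham replicate 2 and between 1.11% and 1.69% elsewhere, and Igkv13-84 alone supplied 2.39% in that library against 0.617% to 0.912% in the others. Family 14 was at 7.48% in Sham replicate 3 and between 4.40% and 5.79% elsewhere, with Igkv14-126 at 4.49% in that library against 1.25% to 2.58%. Family 10 was at 9.03% and 8.21% in Sham replicates 2 and 3 and between 5.59% and 6.36% elsewhere. Family 4 was lowest in Sham replicate 3, at 11.1% against 13.2% to 15.1%.

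Among the 40 segments with a mean share of at least 1%, the ratio of the highest to the lowest library had a median of 1.48. It ran from 1.15 for Igkv9-120 to 3.88 for Igkv13-84 and exceeded 2 for 8 segments. The highest share of these 8 was in a Sham library for Igkv2-109, Igkv10-94, Igkv14-126 and Igkv13-84, and in an OVX library for Igkv3-7, Igkv3-4, Igkv1-88 and Igkv4-59. Igkv4-59 held 1.74%, 0.519% and 0.672% in Sham and 0.809%, 1.68% and 1.79% in OVX, and Igkv1-88 held 1.35%, 0.564% and 0.824% in Sham and 0.886%, 1.33% and 1.56% in OVX. Both were thus highest in Sham replicate 1 and OVX replicates 2 and 3. Igkv10-94 was lowest in those 3 libraries, with 1.44%, 3.61% and 2.64% in Sham and 1.80%, 1.48% and 1.26% in OVX.

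The evenness of segment use overlapped between the groups. The effective number of segments, the number of equally used segments that would give the same Shannon entropy, was 68.0, 60.7 and 60.5 in Sham and 64.2, 68.8 and 67.5 in OVX. The mean was 63.0 ± 4.26 in Sham and 66.8 ± 2.38 in OVX (SD, n = 3 per group), and Sham replicate 1 lay above OVX replicates 1 and 3. Between 16 and 20 segments were needed to reach 50% of Igkv counts in a library.

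The Bray-Curtis distance between segment shares, which is 0 for identical use and 1 for use of different segments, was 0.112 to 0.145 among the Sham libraries and 0.065 to 0.12 among the OVX libraries. Between the groups it was 0.057 to 0.152. The smallest distance of all pairs was between Sham replicate 1 and OVX replicate 3, and the next were between OVX replicates 2 and 3 (0.065) and between Sham replicate 1 and OVX replicate 2 (0.068). Segment use in Sham replicate 1 was therefore closer to these 2 OVX libraries than to either of the other Sham libraries, at 0.145 and 0.135. Sham replicate 1 and OVX replicates 2 and 3 also had the lowest Jchain levels of the 6 libraries (71.3 to 112 CPM against 257 to 641 CPM). Their Rag1 levels were the highest (1350 to 1516 CPM against 581 to 1074 CPM). Of the 10 plasma cell genes, only Jchain was lowest in all of these libraries. Mzb1 (213 to 233 CPM against 168 to 193 CPM) and Slamf7 (206 to 219 CPM against 153 to 193 CPM) were highest in them. The part of these levels in the distances was not tested.

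**Figure D4:**
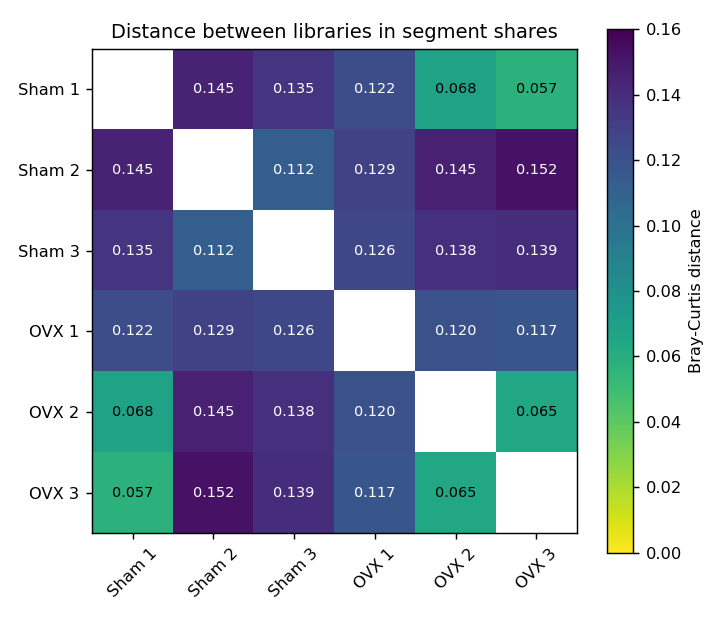
Bray-Curtis distance (colour scale, 0 to 0.16) between the Igkv segment shares of each pair of the 6 libraries. Sham replicate 1, OVX replicate 2 and OVX replicate 3 lie within 0.057 to 0.068 of each other, and every other pair is at 0.112 or more.

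Segment by segment, no Igkv member was called between OVX and Sham. A call needed a change of 1.6-fold or more together with a Benjamini-Hochberg adjusted p below 0.05 over all genes in the quasi-likelihood test of edgeR. The count was 0 of 111, where 0% of all 15305 genes tested were called, and the lowest adjusted p-value was 0.811. DESeq2 and limma-voom also called no segment. At an unadjusted p-value under 0.05, 13 segments were lower in OVX and 4 were higher, where 2.28% and 1.47% of all genes were. A log2 fold change below 0 was found for 82 of the 111 segments (73.9%), against 51.8% of all genes, and one above 0 for 29, against 48.2%. The median was -0.27 for the segments and -0.01 for all genes, and the segments ran from -1.54 to 1.20. Among V segments 77 of 98 were below 0, and among the tested pseudogenes 8 of 13 were above 0. These signs depend on the scale. Scaling each library to its sum of Igkv counts moved the median of all genes to 0.32. On that scale 68 segments were above 0 and 43 (38.7%) below, with a median of 0.09, where 13.6% of all genes were below. The median of the segments minus that of all genes was -0.24 there and -0.26 in the main fit, so their place relative to all genes changed little.

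In CPM, the OVX libraries were all higher than the Sham libraries for 7 segments and all lower for 8, where 4.33% and 4.12% of all genes did so. The 8 lower ones were Igkv1-135, Igkv17-127, Igkv9-124, Igkv2-112, Igkv2-109, Igkv12-98, Igkv13-85 and Igkv4-62. The 7 higher ones were Igkv1-132, Igkv14-118-2, Igkv11-114, Igkv4-90, Igkv12-89, Igkv4-71 and Igkv4-69, each with a mean share under 1%. As shares of Igkv counts, 11 segments separated the groups, all of them higher in OVX (8.09% of all genes on the same scale) and including these 7, and 0 segments were lower (0.431%). The 4 added ones were Igkv19-93, Igkv4-78, Igkv1-35 and Igkv6-25.

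The 8 segments with the lowest unadjusted p-values included some of the most used. The adjusted p-value was 0.811 in edgeR for each of the 15 segments described next. Igkv9-124 (67942076 to 67942540) had the lowest, with 21.0, 23.1 and 21.6 CPM in Sham and 14.7, 16.7 and 16.6 CPM in OVX. All OVX libraries were below all Sham libraries, and the log2 fold change was -0.45 (standard error 0.11). Igkv17-127 (67861159 to 67861659) was at 38.6, 49.1 and 45.1 CPM in Sham and 28.6, 35.9 and 34.2 CPM in OVX, a log2 fold change of -0.43 ± 0.13 (standard error). Igkv1-135 (67609745 to 67610508), number 3 in share of counts, was at 59.8, 81.2 and 88.4 CPM in Sham and 55.9, 56.6 and 55.1 CPM in OVX, a log2 fold change of -0.45 ± 0.14. These 3 segments lie in the farthest stretch of the locus. Their shares of Igkv counts overlapped between the groups, and the Igkv sum itself had a log2 ratio of mean CPM of -0.40. Under two-sided exact permutation of log2(CPM + 0.5), each gave p = 0.1, the smallest that 3 libraries against 3 allow. Groups that do not overlap always give this value, so it adds nothing to the separation already described.

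Igkv6-15 and Igkv2-109 had larger differences with more spread. Igkv6-15 (70406469 to 70406992) was at 38.5, 75.9 and 60.0 CPM in Sham and 33.6, 39.0 and 37.45 CPM in OVX. Its log2 fold change was -0.66 ± 0.22, and Sham replicate 1 lay within the OVX values. Igkv2-109 (68302439 to 68303158) was at 14.2, 21.6 and 30.2 CPM in Sham and 11.3, 13.4 and 13.96 CPM in OVX, a log2 fold change of -0.77 ± 0.26 that separated the groups by a small margin. The remaining 3 of the 8 were Igkv10-94, which was lower in OVX, and Igkv4-69 and Igkv1-132, which were higher. Igkv4-69 (69283794 to 69284319) had 60, 88 and 55 counts in Sham and 85, 139 and 154 in OVX, a log2 fold change of 0.73 ± 0.24. Igkv1-132 (67759700 to 67760413) had 26, 31 and 36 counts in Sham and 45, 57 and 68 in OVX, a log2 fold change of 0.70 ± 0.25.

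The lowest log2 fold changes rested on 1 or 2 Sham libraries. Igkv4-57-1 (69544368 to 69544892) was at 5.83, 42.8 and 15.4 CPM in Sham and 6.60, 8.68 and 6.78 CPM in OVX. The log2 fold change of -1.54 ± 0.63 became -0.53 without Sham replicate 2. Igkv13-84 (68939602 to 68940067) was at 9.37, 54.8 and 13.5 CPM in Sham and 8.88, 12.5 and 8.96 CPM in OVX, and its log2 fold change of -1.36 ± 0.63 became -0.18 without that library. Igkv10-94 (68704508 to 68704978) was at 18.95, 82.7 and 47.2 CPM in Sham and 25.9, 20.3 and 16.2 CPM in OVX, and its log2 fold change of -1.26 ± 0.47 became -0.67. For Igkv12-38 (69943186 to 69943648) the high library was Sham replicate 3, with 217 counts against 39 to 71 in the others, and the log2 fold change of -1.35 ± 0.60 became -0.32 without it. Sham replicate 1 lay within or below the range of the OVX libraries for all 4 of these segments.

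The highest log2 fold changes belonged to little used segments. Igkv4-71 (69243160 to 69243688) had 10, 17 and 5 counts in Sham and 15, 34 and 34 in OVX, a log2 fold change of 1.20 ± 0.47. Igkv11-114 (68164459 to 68164923), annotated as a pseudogene, had 8, 8 and 9 counts in Sham and 15, 19 and 18 in OVX, a log2 fold change of 0.89 ± 0.35. Igkv4-78 (69059690 to 69060224) had 28, 57 and 40 counts in Sham and 36, 140 and 70 in OVX, and its log2 fold change of 0.83 ± 0.48 became 0.17 without OVX replicate 2. Igkv1-133 (67724914 to 67725661) had 130, 125 and 131 counts in Sham and 400, 141 and 170 in OVX. Its log2 fold change of 0.80 ± 0.47 became 0.0047 without OVX replicate 1, so a single OVX library held the difference.

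**Figure D5:**
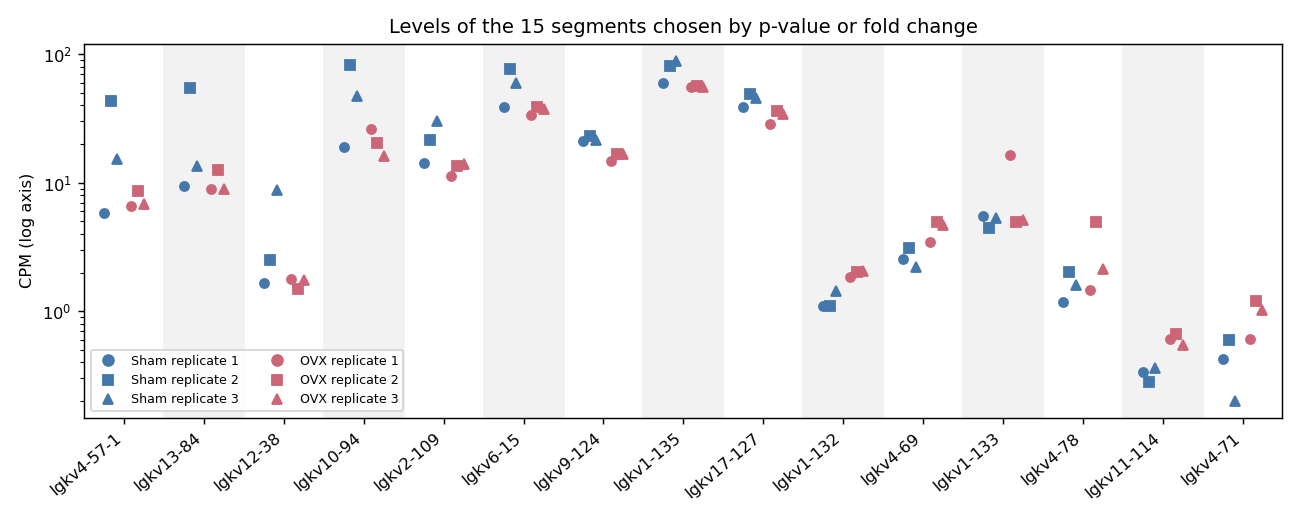
Level (y axis, CPM, log axis) of the 15 segments with the lowest unadjusted p-values or the lowest or highest log2 fold changes, ordered by log2 fold change (x axis), in each Sham (blue) and OVX (red) library. The segments at the left, such as Igkv4-57-1 and Igkv13-84, have 1 or 2 high Sham points, and Igkv9-124, Igkv1-135 and Igkv17-127 have all OVX points below all Sham points.

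Igkv14-126 (67896177 to 67896642), the annotated pseudogene with the most counts, had 477, 1652 and 1989 counts in Sham and 911, 610 and 532 in OVX. Its log2 fold change was -1.09 ± 0.50 with overlapping groups. All pseudogenes together held 2.77%, 3.16% and 5.28% of Igkv counts in Sham and 3.44%, 2.85% and 2.61% in OVX. Without Igkv14-126 they held 0.618% to 1.36% in any library. How reads matching several similar segments were counted is not given in the sources used here, so the level of a segment with a near-identical copy is uncertain.

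The other parts of the light chain machinery were also not called. The 5 joining segments Igkj1 to Igkj5 had log2 fold changes from -0.05 to 0.16. As a share of Igkv plus Igkj counts they made up 10.6%, 7.92% and 7.84% in Sham and 12.1%, 10.9% and 10.7% in OVX. All OVX libraries were thus higher, as for 8.09% of all genes per Igkv count, but the nearest libraries were almost level. As a share of all counts the joining segments overlapped between the groups, with a log2 ratio of 0.02, whereas the Igkv sum had one of -0.42. Of the 20 genes for factors of kappa transcription and recombination, 16 had a log2 fold change above 0 (48.2% of all genes) and 4 below, and 0 had an unadjusted p below 0.05. Rag2, the partner of Rag1, was at 92.8, 38.6 and 52.2 CPM in Sham and 70.7, 98.2 and 94.0 CPM in OVX, in the same order of libraries as Rag1. Of the 9 lambda light chain genes tested, 6 were below 0 (51.8% of all genes), and 3 of them, Iglv1, Iglv2 and Iglv3, had unadjusted p-values under 0.05 (2.28% of all genes in that direction). Iglv2 had the largest difference of these, at 68.6, 104 and 104 CPM in Sham and 43.9, 71.9 and 58.2 CPM in OVX, a log2 fold change of -0.66 ± 0.22. The lambda V segments made up 21.9%, 16.4% and 20.5% of Igkv plus Iglv counts in Sham and 14.8%, 21.7% and 19.6% in OVX, so the balance of kappa to lambda overlapped between the groups.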

How the data were processed

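RNA-seq of bone marrow B cells from 3 Sham and 3 OVX samples, made with a TruSeq kit from Trizol RNA per the labels, was examined. The authors deposited a table of raw read counts, one row per Ensembl gene, with no normalization applied. The submitters' processing notes name the mm10 build, CASAVA and Bowtie 0.12.2 without their roles. The counting tool, annotation and strand setting are not given in the sources used here. ChIP-seq of HIF-1α was not analysed here. Symbols matched 54409 of 54532 identifiers, and all 160 Igkv rows matched the RefSeq table of GRCm38.p6, which gave positions and the class of each segment.

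The whole table was fitted with edgeR 4.0.16 under R 4.3.3, with filterByExpr by group (15305 genes), TMM factors, the quasi-likelihood test and Benjamini-Hochberg adjustment. The standard error is the log2 fold change divided by the square root of F. limma 3.58.1 (voom) and DESeq2 1.42.0 were alternatives. Shares, diversity and distances are descriptions without a test, and reads carry no molecular identifiers. The named segments are the 10 most used, the 8 with the lowest p-values, the 4 lowest and 4 highest log2 fold changes among those with at least 50 counts, segments raised in a single library, and the most used segment of each family. The members and lists were chosen with earlier results of these data known.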

Additional observations from a re-analysis of the deposited data

How the results depend on the processing

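No Igkv segment was called under any of the 16 alternatives tried, and the lowest adjusted p-value among them was 0.273, without Sham replicate 1 (edgeR). The numbers of segments higher and lower at an unadjusted p-value under 0.05 were 4 and 13, where 225 and 349 of all 15305 genes were. They were 2 and 25 with DESeq2 (204 and 551 of 27416 genes) and 5 and 8 with limma-voom (244 and 350 of 15305). With scaling to the Igkv sum they were 9 and 6 (374 and 242 of 15305), and without a filter 4 and 31 (364 and 905 of 27416). With a library left out they were 0 to 4 and 7 to 40 (92 to 1254 and 120 to 1444 of all genes). The 40 came without Sham replicate 1, where 1254 and 1444 of all 16051 genes were higher and lower. Replicate numbers did not pair the libraries (correlations of deviations -0.41, -0.19 and -0.28). With the replicate number as a block 0 segments were called. At an unadjusted p-value under 0.05, 1 segment was then higher and 9 were lower, where 74 and 132 of all 15305 genes were. The number of families whose groups did not overlap was 4. It was 2 with Igkv plus Iglv counts as the denominator (families 3 and 19) and 2 without each family's highest segment (families 3 and 6, of 15 families left). With a library left out it was 4 to 8, the 8 without Sham replicate 1. Leaving a library out cannot make separated groups overlap, so this last number could not fall below 4 and is no check of the 4 families. The cause of these shifts was not tested. The log2 ratio of the total Igkv share was -0.61 to -0.19 with a library left out, and the difference in the effective number of segments was 2.49 to 6.23. None of the 225 refitted log2 fold changes of the 15 segments with the lowest p-values or most extreme fold changes reversed. Those segments were chosen by these values in the same libraries, so the choice itself favours kept signs, which are no independent support. Igkv1-133 kept its sign at 0.0047 without OVX replicate 1. Segments with few counts, such as Igkv4-71 and Igkv20-101-2, are limited by depth.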
